A study of Mus musculus with 12 samples.

Results

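OT-I CD8 T cells that had spent 48 h on stimulating plates were set against cells of the same origin that had not been stimulated. The members of this comparison are the 3 libraries labelled 48h and the 3 labelled Naive, 6 of the 12 libraries of a time course, and they were compared across 12630 tested genes of 48709 listed. All cells came from the spleen of OT-I mice, a transgenic strain with CD8 T cells of 1 T cell receptor (TCR), which sees an ovalbumin peptide. The Naive cells had no treatment. The 48h cells were activated for 48 h with antibody to CD3 at 2 µg/ml and antibody to CD28 at 1 µg/ml, with IL-2 at 10 ng/ml. Cells after 24 h of the same activation, and cells at 72 h that had left the plates at 48 h, are used here to show where 48h differs from its neighbours in time. No library of cells kept in culture without the antibodies or without IL-2 was used here, so stimulation, IL-2 and time in culture cannot be told apart. The age and number of the mice behind each library are not given, and the extraction note speaks of transferred OT-I cells without saying whether that covers these libraries. The p-values therefore measure only the spread between these libraries.

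A naive CD8 T cell is small and quiescent, recirculates between blood and lymphoid organs, and transcribes little of the machinery of growth. Signals through the TCR, through the costimulatory receptor CD28 and through the IL-2 receptor make it grow, divide, and arm itself with cytokines and cytotoxic granules. Growth is known to run through transcriptional programmes with well-described promoter elements: ATF4 for amino acid supply, MYC for ribosome production, E2F and the DREAM complex for the cell cycle, and SREBP for sterols.

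The promoters of 5 genes that rose at 48h are shown because each belongs to 1 of these programmes and holds its element. They run from 250 bases before to 50 bases after the RefSeq start, from RefSeq on GRCm38.p6, and capitals mark the element. Asns encodes asparagine synthetase (chr6:7693160-7693459, minus strand), Nop2 a ribosomal RNA methyltransferase (chr6:125131633-125131932, plus strand), and Cdc6 a loader of the replicative helicase (chr11:98907901-98908200, plus strand). Hmmr encodes a spindle protein (chr11:40733388-40733687, minus strand) and Hmgcs1 a synthase of the mevalonate pathway (chr13:119690101-119690400, plus strand).
Asns: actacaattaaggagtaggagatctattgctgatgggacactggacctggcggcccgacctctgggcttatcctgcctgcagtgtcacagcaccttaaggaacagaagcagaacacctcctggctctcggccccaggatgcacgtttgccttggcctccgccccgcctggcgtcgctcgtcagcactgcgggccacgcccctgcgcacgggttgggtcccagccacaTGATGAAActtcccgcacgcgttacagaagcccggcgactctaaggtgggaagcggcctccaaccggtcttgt
Nop2: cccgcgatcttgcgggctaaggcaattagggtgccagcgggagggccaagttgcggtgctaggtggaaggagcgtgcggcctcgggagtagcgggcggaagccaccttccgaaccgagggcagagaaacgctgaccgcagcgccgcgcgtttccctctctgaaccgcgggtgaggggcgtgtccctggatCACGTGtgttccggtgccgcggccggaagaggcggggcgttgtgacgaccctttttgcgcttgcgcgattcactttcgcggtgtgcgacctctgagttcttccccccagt
Cdc6: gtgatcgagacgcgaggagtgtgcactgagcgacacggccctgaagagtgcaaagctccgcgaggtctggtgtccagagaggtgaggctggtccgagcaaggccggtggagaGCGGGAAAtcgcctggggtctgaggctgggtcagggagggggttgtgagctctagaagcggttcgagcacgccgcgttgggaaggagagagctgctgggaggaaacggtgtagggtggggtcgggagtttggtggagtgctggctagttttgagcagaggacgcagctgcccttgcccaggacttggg
Hmmr: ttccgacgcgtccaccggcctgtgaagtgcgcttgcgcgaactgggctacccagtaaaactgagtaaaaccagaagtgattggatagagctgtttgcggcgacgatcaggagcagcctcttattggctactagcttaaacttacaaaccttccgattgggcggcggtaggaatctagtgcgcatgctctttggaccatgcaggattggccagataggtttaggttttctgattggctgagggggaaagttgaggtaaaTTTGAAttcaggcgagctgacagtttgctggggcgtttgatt
Hmgcs1: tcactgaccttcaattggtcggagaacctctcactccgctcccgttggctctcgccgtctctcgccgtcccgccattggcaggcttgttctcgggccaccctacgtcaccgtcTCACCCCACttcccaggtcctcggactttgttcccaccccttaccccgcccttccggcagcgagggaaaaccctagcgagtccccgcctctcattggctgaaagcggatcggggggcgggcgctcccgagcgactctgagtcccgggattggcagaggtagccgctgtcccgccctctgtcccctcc

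Each element was searched on both strands as fixed letters, and none of the searched words lies within another. The core of the amino acid response element, TGATGNAA, starts 23 bases before the Asns start. It was found in 7 of 20 members with a promoter in a list of ATF4-associated genes (35.0%), in 3.97% of all 32851 promoters and in 2.78% of the 9271 tested genes with a promoter. The E-box CACGTG lies 60 bases before the Nop2 start, and 10 of 50 ribosome biogenesis promoters held it (20.0%), beside 7.15% of all promoters and 11.9% of those of tested genes. Among the 40 members called higher the share was 6 (15%), nearer to that of tested genes. The E2F element, TTTCCCGC or TTTGGCGC, stands 138 bases before the Cdc6 start on the other strand. It was in 13 of 38 DNA replication promoters (34.2%), beside 1.56% and 3.52%. The cell cycle homology region, TTTGAA or TTCGAA, is the letter pattern of the mitosis list: 30 of 38 promoters held it (78.9%), beside 19.2% and 16.6%, and in Hmmr it starts at base 8 after the start. The sterol element core TCACCCCAC was in 1 of 17 promoters of the cholesterol list, that of Hmgcs1 (5.88%), beside 0.551% and 0.669%. These matches are descriptions of letters in a window and were not tested as sites.

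At 48h 3117 genes stood higher than in Naive (24.7% of those tested) and 2609 stood lower (20.7%), so 45.3% of genes changed. These shares of all genes are the background for every list count below. By adjusted p alone, 46.2% were higher and 36.7% lower, and every 48h library lay above every Naive library in 46.4% of genes and below in 35.8%. A gene was called when its limma adjusted p was under 0.05 and its log2(TPM + 1) differed by 1 or more, where TPM corrects read counts for the length of the transcript and the size of the library. The 1 added to each value understates the change of low genes. At 3 or more on the log2 scale, an 8-fold change, 479 genes fell and 303 rose. The median over all genes was 0.15, and −0.07 with median-of-ratios scaling, so a count of moderate changes depends on the scaling: 54.4% of calls were rises, beside 44.2% with that scaling. Eef1a1, a translation elongation factor, was among the highest genes of both groups, at 17205, 18062 and 17896 TPM in the 3 Naive libraries and 17337, 17494 and 18342 at 48h, with a log2 difference of 0.00 (SE 0.05). The 100 highest genes held 42.84% of all TPM in Naive and 35.27% at 48h. Recovered reads came to between 14312854 and 18766017 in these 6 libraries.

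**Figure D1:**
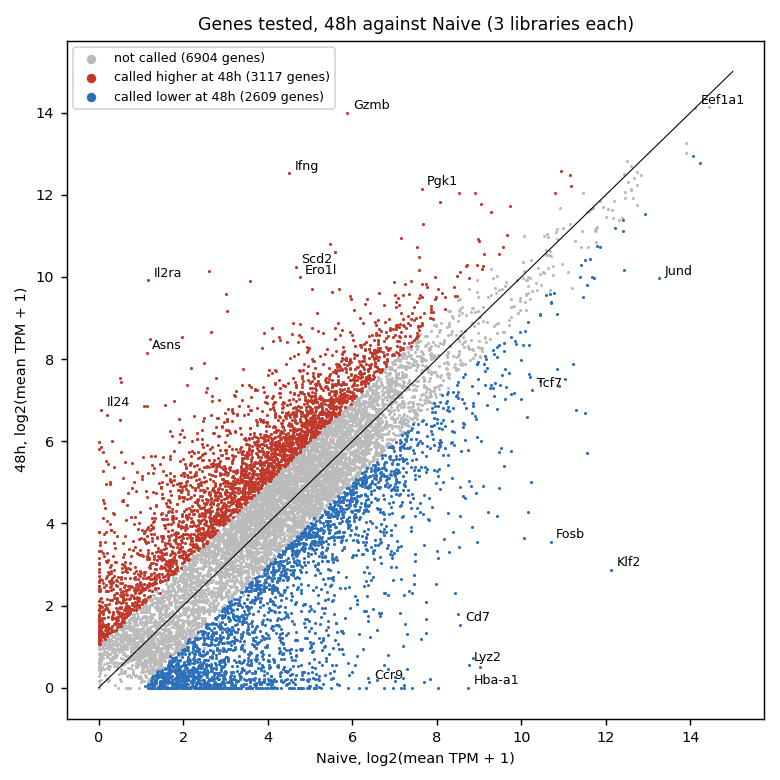
Each point is 1 of the genes tested, with its mean TPM over 3 Naive libraries on the x axis and over 3 48h libraries on the y axis, both as log2(mean TPM + 1). Red points (3117 genes) were called higher at 48h, blue points (2609) lower, and grey points were not called; the line marks equal levels.

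The Naive libraries varied more among themselves than the 48h libraries. Among genes of at least 10 TPM the median coefficient of variation was 10.75% in Naive and 5.175% at 48h, and 122 genes passed 50% in Naive against 4 at 48h. The sums of the myeloid, B cell, erythroid and NK cell markers were highest in Naive replicate 1 and lowest in replicate 3, an order that 19.9% of all tested genes had. The 19 myeloid markers tested summed to 4638, 3255 and 1757 TPM in Naive replicates 1, 2 and 3 and to between 128 and 129 TPM at 48h. All 19 were called lower, 17 were highest in Naive replicate 1, all were lowest in replicate 3, and C1qa, C1qc, S100a8, Fcna and Spic were listed at 0 in all 48h libraries. The 17 B cell markers summed to 8082, 6485 and 5409 TPM in Naive and to between 449 and 480.0 TPM at 48h, and all were called lower; 12 were highest in replicate 1 and 8 lowest in replicate 3. The 10 erythroid and platelet markers, of which 9 were highest in replicate 1 and 9 lowest in replicate 3, went from between 1567 and 2189 TPM to between 4.28 and 7.52 TPM. Of 10 NK cell markers 9 were called lower, and Prf1, which encodes perforin and is shared with cytotoxic T cells, was called higher. The list summed to between 653 and 921 TPM in Naive and 327 and 381 TPM at 48h. Prf1 made up nearly all of the 48h sum but a minor part of the Naive sum. In Naive, 9 members were highest in replicate 1 but only 3 lowest in replicate 3. Both stromal markers tested fell, from sums of 80.4, 84.4 and 84.8 TPM in Naive replicates 1, 2 and 3, the opposite order, to between 9.59 and 12.5 TPM. In bulk RNA, fewer cells of a type and less RNA per cell cannot be told apart.

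**Figure D2:**
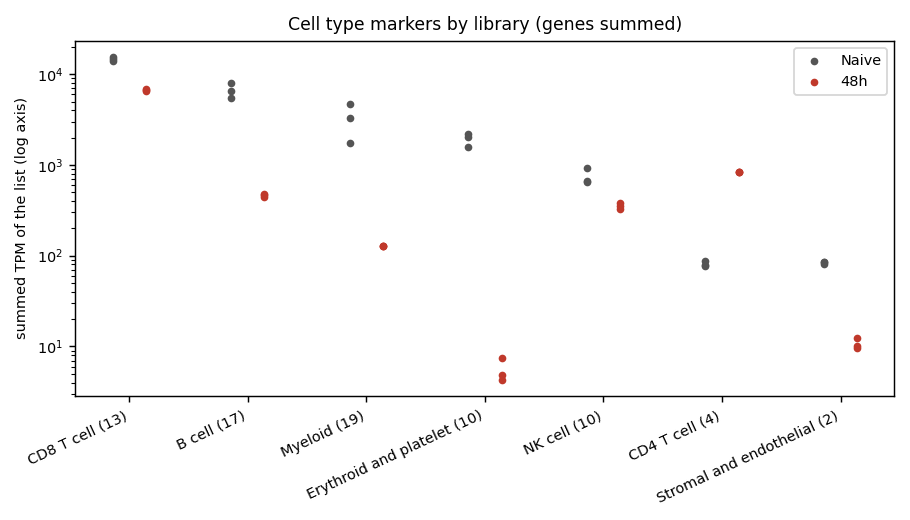
The y axis is the summed TPM of each marker list on a log axis, with the number of genes tested in brackets, and each point is 1 library. Myeloid, B cell and erythroid sums lie far lower in all 48h libraries, and the CD4 list lies higher through Ctla4, which activated CD8 cells also express. The NK cell sum at 48h is nearly all Prf1.

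Both groups carried the defining transcripts of CD8 T cells. Cd8a stood at 737, 783 and 771 TPM in Naive and 288, 296 and 292 at 48h, and Cd8b1 at 1135, 1068 and 1077 and 399, 422 and 419. Both coreceptor chains were lower in every 48h library, while Cd4 lay under 1 TPM at 48h and at 8.32, 8.18 and 3.93 in Naive. Of 13 CD8 T cell markers 7 fell (53.8%, against 20.7% of all genes) and none rose (against 24.7%). Trbc2, a constant segment of the TCR beta chain, fell most (−2.27, SE 0.07), from 5099, 5585 and 5919.6 TPM to 1204, 1151 and 1073. Thy1 (0.32) and Cd2 (−0.102) lay under the fold minimum, and neither was called.

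Secreted cytokines were among the steepest rises. Of 21 tested members 14 rose (66.7%, against 24.7% of all genes) and 3 fell, and the list's median log2 fold change was 2.54, beside 0.15 over all genes. Ifng, the macrophage-activating cytokine of CD8 cells, went from 27.2, 25.04 and 12.8 TPM in Naive to 5702, 5841 and 6070.4 at 48h. Lta, the lymphotoxin alpha chain, went from 10.2, 10.5 and 12.4 to 993, 979.5 and 882. Il24, an IL-10 family cytokine, was read at 0, 0 and 0.139 TPM in Naive and at 103, 109 and 112 at 48h. All 48h libraries lay above all Naive libraries for each of these. On the log2 scale Ifng rose by 8.08 (SE 0.21, adjusted p = 1.37e-12) and Lta by 6.31 (SE 0.08, adjusted p = 8.29e-15). Il24 differed by 6.71, a value that depends on the added 1, since its Naive values lay near the floor. It reached the 1 TPM needed for testing only in activated libraries, so no p-value is given for it. The growth factors Il3 and Csf2, which act on myeloid precursors, were listed at 0 in every Naive library. At 48h Il3 stood at 57.8, 57.9 and 71.8 TPM and Csf2 at 55.8, 53.7 and 56.3. Both lie above the list's median. In Naive, Ifng was highest in replicate 1 and lowest in replicate 3, the order of the myeloid sums, whose part in its Naive level was not tested.

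Cytokines of other T cell types were present as well. Il13, a type 2 cytokine, went from 0.513, 0 and 0 TPM to 44.7, 44.2 and 38.6 (5.24, SE 0.29). Il2 itself, the T cell growth factor, stood at 15.1, 15.8 and 16.3 TPM at 48h against 0.2703, 0 and 0.169 (3.87, SE 0.17), a low level beside Ifng. Tnf rose by less, from 20.7, 16.99 and 17.7 TPM to 42.3, 44.8 and 36.4 (1.12, SE 0.10), and lay under the fold minimum with median-of-ratios scaling (0.87), quantile normalization (0.92) or a pseudocount of 5 (0.98). Ltb, which forms membrane heterotrimers with lymphotoxin alpha, moved the opposite way to Lta, from 517, 479 and 499 to 162, 146 and 124 (−1.79). The chemoattractant Il16 also fell (−2.15), while Tgfb1 stood at 221, 218 and 197 TPM in Naive and 243, 217 and 196 at 48h, with overlapping groups.

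The TNF family ligands had 6 of 10 members higher and 2 lower. Tnfsf11, known as RANKL, went from 6.92, 9.34 and 13.1 TPM to 65.8, 65.5 and 65.6 (2.67, SE 0.16). Fasl, a death ligand of cytotoxic cells, stood at 18.7, 21.8 and 13.3 TPM in Naive and 27.7, 30.1 and 28.8 at 48h. Every 48h library was above every Naive one, yet its log2 difference of 0.68 (SE 0.14) lay under the fold minimum. Cd40lg, the helper cell ligand, fell from 12.99, 22.1 and 21.3 to 1.89, 1.02 and 2.15 TPM.

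Among 11 chemokine ligands 3 rose (27.3%, against 24.7% of all genes) and 4 fell (36.4%, against 20.7%; 2 fell with a pseudocount of 5). The rises were Ccl3, from 68.8, 40.2 and 31.8 TPM to 1488, 1591 and 1561, Ccl4, from 151, 79.6 and 65.6 to 764, 755 and 825, and Xcl1, from 32.5, 10.9 and 5.91 to 372, 327 and 335. Ccl3 and Ccl4 recruit inflammatory cells, and Xcl1 recruits cross-presenting dendritic cells. All 3 were highest in Naive replicate 1 and lowest in replicate 3 before activation, the same order as the myeloid sums, whose part was not tested. Ccl5, a chemokine of memory cells, went the other way, from 846, 765 and 506 TPM to 28.5, 28.2 and 26.9 (−4.58, SE 0.14), and its Naive values had the same order. Ccl6, a myeloid chemokine, fell from 49.97, 29.9 and 16.6 to 1.13, 0.797 and 0.561.

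Of 22 cytotoxic granule genes 10 rose (45.5%, against 24.7% of all genes) and 4 fell (18.2%, against 20.7%). With a pseudocount of 5, 2 fell. Gzmb, the main protease of the granule, went from 74.8, 64.3 and 35.2 TPM to 16607, 16370.4 and 16094, the highest 48h level of any gene called. Serpinb9, the inhibitor that protects a killer cell from its own granzyme B, went from 18.1, 13.3 and 10.5 to 382, 401 and 401. Serpinb6b, a related serpin, went from 36.5, 36.9 and 23.2 to 809.9, 827 and 871. The protease rose by 8.18 (SE 0.19) and the serpins by 4.76 and 4.68 (SE 0.13 and 0.13). Prf1, the pore former, rose less, from 133, 117 and 145 to 346, 375 and 318 TPM (1.39, SE 0.08). Gzma, another granzyme, moved opposite to Gzmb, from 442, 321 and 223 to 29.3, 34.2 and 37.5 (−3.203, SE 0.19), and Ctsw, a cathepsin of cytotoxic cells, from 299, 274 and 265 to 76.8, 75.2 and 80.4. Nkg7 and Srgn, a granule membrane protein and the granule proteoglycan, were high in both groups, with differences of 0.26 and −0.57. Gzmc rose by 4.04. Its near-identical relatives Gzmd, Gzme and Gzmf were listed at 0 in Naive and at means of 4.56, 2.79 and 2.06 TPM at 48h, and all 4 are uncertain, since the treatment of shared reads is not given. Gzmb, Serpinb9, Gzma, Ctsw and Nkg7 had the Naive order of the myeloid sums, whose part was not tested.

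**Figure D3:**
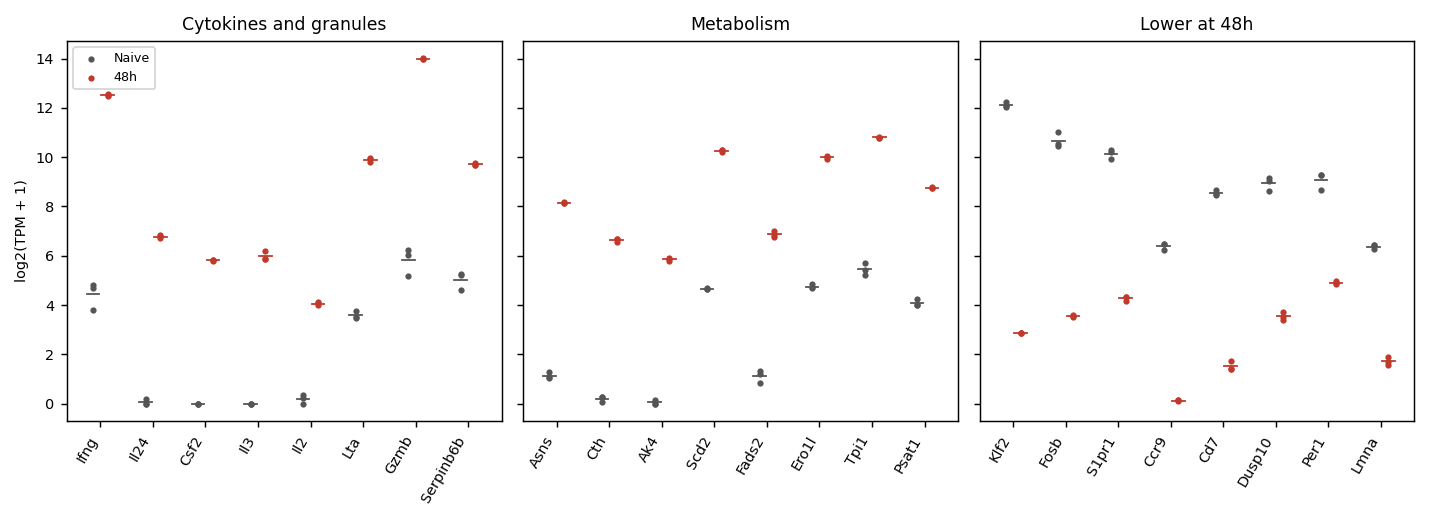
Each point is 1 library on a log2(TPM + 1) scale, grey for Naive and red for 48h, with a bar at the group mean. The genes of the first 2 panels lie above their Naive values in every 48h library and those of the last panel lie below, and the 48h points lie closer together than the Naive points for Gzmb and Ifng. Cd7 also belongs to the list of NK cell markers.

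Of 29 cytokine receptor genes 6 rose (20.7%, against 24.7% of all genes) and 16 fell (55.2%, against 20.7%), with a median of −1.15. The largest rise was that of Il2ra, the high-affinity IL-2 receptor chain (8.75, SE 0.08). Il12rb2, the signalling chain of the IL-12 receptor, went from 4.73, 6.95 and 4.23 TPM to 406, 420.1 and 381, and Il12rb1 from 6.29, 4.596 and 5.04 to 105, 101 and 89.9. Il2rb, shared by the IL-2 and IL-15 receptors, went from 236, 244 and 262 to 1029, 1040.0 and 983 (2.04, SE 0.05). Il2rg, the common gamma chain, did not follow it: 564, 638 and 642 TPM in Naive and 356, 363 and 365 at 48h, a log2 difference of −0.76 that passed the fold minimum with median-of-ratios scaling (−1.02). Il6ra, the IL-6 receptor, fell from 48.8, 57.99 and 49.3 to 1.54, 1.6 and 1.61 TPM (−4.35, SE 0.11). Ifngr1, the ligand-binding chain of the interferon gamma receptor, fell from 612, 774 and 827 to 54.9, 60.7 and 52.1 (−3.69, SE 0.12).

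Costimulatory and activation receptors rose in 11 of 25 cases (44.0%, against 24.7% of all genes) and fell in 6 (24.0%, against 20.7%). With median-of-ratios scaling 9 rose and 7 fell. Tnfrsf4, known as OX40, went from 11.7, 5.23 and 4.39 TPM to 761, 771 and 755. Tnfrsf8, known as CD30, went from 0.626, 0.318 and 0.335 to 95.6, 91.7 and 84.9, and Tnfrsf18, known as GITR, from 34.1, 31.8 and 29.6 to 451, 429 and 406. These TNF receptor family members rose by 6.66, 6.01 and 3.71 (SE 0.23, 0.10 and 0.08). Among the receptors that fell, Cd28, whose ligand antibody was in the culture, went from 226, 356 and 323 TPM to 103, 111 and 108 (−1.45, SE 0.13), and Cd27 from 133, 161 and 168 to 66.4, 69.6 and 61.2 (−1.21). Cd69, often read as an early activation marker, was higher in Naive, at 709, 717 and 731 TPM against 151, 165 and 178 (−2.12, SE 0.06). Icos rose by 1.11, and lay under the fold minimum with median-of-ratios scaling (0.86), quantile normalization (0.83) or limma voom on recovered reads (0.99).

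Genes of migration mostly fell: 19 of 29 chemokine, egress and adhesion receptors were lower and 5 higher, with a median of −1.22. S1pr1, the exit receptor of lymph nodes, fell from 984, 1186 and 1239 TPM to 17.2, 19.2 and 18.9. Ccr9, a gut homing receptor, fell from 73.4, 87.3 and 88.7 to 0.0717, 0.101 and 0.107, and Itgae, the integrin that binds epithelium, from 59.6, 66.4 and 72.8 to 0.406, 0.486 and 0.477. Their log2 changes were −5.87, −6.26 and −5.53 (SE 0.14, 0.15 and 0.20). Ccr7, a chemokine receptor that brings cells into lymph nodes, stayed far above these and went from 2901, 3820.2 and 3438 to 1022, 998 and 1011 TPM (−1.73). Ccr4, a skin homing receptor, rose from 3.05, 1.38 and 1.53 to 117, 126 and 110.3 (5.35, SE 0.16), and Ccr8 from 3.48, 1.58 and 2.84 to 20.6, 25.2 and 17.6.

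Immediate-early transcription factors respond to a fresh stimulus within minutes. Of 22 AP-1, EGR and NR4A factors 10 fell at 48h (45.5%, against 20.7% of all genes) and 5 rose (22.7%, against 24.7%). With median-of-ratios scaling 3 rose. Fosb stood at 1414, 2067 and 1489 TPM in Naive and 10.99, 10.7 and 10.4 at 48h, and Jund at 9303, 10526 and 9434 and 1083, 968 and 947. Jun fell from 861, 879 and 583 to 45.3, 38.3 and 40.2, and Fos from 400.1, 368 and 225 to 11.4, 12.9 and 14.4. The log2 changes were −7.13 for Fosb, −3.29 for Jund, −4.18 for Jun and −4.54 for Fos (SE between 0.10 and 0.18). The heat shock genes Hspa1a and Hspa1b, near-identical copies that are also known for rapid induction, stood at 414, 166 and 201 and 441, 179 and 244 TPM in Naive and at 7.63, 8.09 and 8.09 and 13.3, 10.04 and 10.7 at 48h. Batf3 rose within the AP-1 family, from 10.6, 4.59 and 1.09 TPM to 135, 128 and 114 (4.62, SE 0.41), while Batf, its relative, differed by 0.71, under the fold minimum. The Naive values of Batf3, also a dendritic cell factor, had the order of the myeloid sums, whose part was not tested. Egr2 differed by 0.98 and passed with a pseudocount of 0.1 (1.05), without Naive replicate 2 (1.02) and without 48h replicate 2 (1.04).

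The NF-kappaB and NFAT list held 3 rises (13.6%, against 24.7% of all genes) and 8 falls (36.4%, against 20.7%) in 22 genes. Nfkb1, the p105 precursor, went from 98.3, 114 and 112 TPM to 492, 484 and 455 (2.14, SE 0.06). Nfkbia, the inhibitor that NF-kappaB induces, went the other way, from 672, 649 and 612 to 151, 155 and 161 (−2.04, SE 0.06), as did Rela (−1.17). Nfatc1, Nfatc2 and Nfatc3, the calcium-driven partners of AP-1, differed by 0.19, −0.09 and −0.19, none of which passed.

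Of 20 effector fate factors 12 rose and 1 fell, and of 20 naive and T lineage factors 8 fell and none rose. Irf4, which scales with TCR signal strength, went from 60.7, 65.7 and 69.5 TPM to 577, 604 and 583 (3.15, SE 0.06). Bhlhe40, a repressor that sustains cytokine production, went from 159, 138 and 113 to 629.7, 639 and 641, and Nfil3 from 39.2, 29.3 and 27.7 to 154, 162 and 153. Tbx21, which encodes T-bet, rose from 18.1, 21.1 and 14.3 to 69.4, 62.9 and 58.5 (1.79, SE 0.11). Eomes, its relative, rose by 1.005, from 29.3, 21.7 and 26.9 TPM to 55.5, 53.6 and 49.3, and lay under the fold minimum with median-of-ratios scaling (0.76), without Naive replicate 2 (0.89), and without 48h replicate 1 (0.97) or 2 (0.99). Prdm1 and Id2, factors of terminal effectors, had differences of 0.39 and −0.08 and were not called. On the naive side, Lef1 fell from 132, 155 and 162 to 29.02, 28.8 and 30.02 TPM (−2.31), Bcl6 from 16.2, 18.4 and 20.4 to 0.933, 0.736 and 0.752 (−3.42) and Id3 from 139.8, 141 and 193 to 30.8, 26.4 and 24.9 (−2.48). Foxo1, which the series title names, fell by 1.21 (SE 0.09), and Klhl6, the other gene of the title, by 2.31 (SE 0.10).

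The KLF and quiescence list had a median of −2.005, lower than any list other than those of other cell types, with 18 of 23 genes lower and 1 higher. Btg1, an antiproliferative factor, stood at 1739, 2041 and 1877 TPM in Naive and 168, 162 and 158 at 48h. Tsc22d3, the glucocorticoid-induced leucine zipper, fell from 577, 597 and 605 to 17.4, 18.2 and 19.4, and Klf4 from 243, 295 and 225 to 9.92, 9.18 and 8.096. The log2 changes were −3.52, −4.94 and −4.66 (SE 0.06, 0.08 and 0.12). Klf3, which represses some of the targets that Klf2 activates, fell from 75.6, 97.99 and 110.0 to 1.62, 1.65 and 1.64 TPM. The rise was Slfn3 (2.58), and Slfn2, needed for T cell quiescence, differed by −0.197.

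In the MYC network, which sets the level of growth genes, Myc went from 85.2, 96.98 and 108 TPM to 502, 497 and 476 (2.34, SE 0.07). Max, the partner of Myc, stood at 117, 116 and 124 TPM in Naive and 115, 117 and 110.4 at 48h, and the groups overlapped. Of the repressors that compete for Max, Mxd4 fell from 114, 139.9 and 145 to 9.35, 9.74 and 8.73 (−3.697), Mxd1 from 49.5, 47.2 and 54.2 to 13.4, 11.3 and 13.6 (−1.902) and Mnt from 64.2, 98.5 and 95.9 to 30.7, 25.7 and 23.3 (−1.64), while Mxi1 rose from 15.7, 14.5 and 13.6 to 45.4, 46.7 and 42.4 (1.56). In all, 3 of 12 network genes rose (25%, against 24.7% of all genes) and 5 fell (41.7%, against 20.7%).

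Transcripts of proximal TCR signalling drifted down by less than the fold minimum in many cases. Of 29 genes 10 fell (34.5%, against 20.7% of all genes) and 1 rose (3.45%, against 24.7%). The count of falls was 17 with median-of-ratios scaling. Lck, the kinase bound to CD8, stood at 636, 708 and 729 TPM in Naive and 422, 396 and 379 at 48h, Zap70 at 190.0, 244 and 235 and 130.1, 124 and 121, and the adaptor Lat at 721, 749.8 and 799 and 415, 399 and 388. The groups did not overlap for any of them. Their differences of −0.79, −0.82 and −0.91 were not called, but passed with median-of-ratios scaling (−1.05, −1.08 and −1.17). The largest falls were those of Txk, a Tec kinase (−3.35), and Pag1, an adaptor that holds Csk (−2.41). Themis, which tunes TCR signals, was the rise (1.29, from 46.6, 60.2 and 55.8 TPM to 125, 142 and 133).

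Of 38 feedback genes 6 rose (15.8%, against 24.7% of all genes) and 13 fell (34.2%, against 20.7%). Cish, a STAT5-induced SOCS family gene, went from 5.54, 5.71 and 5.06 TPM to 139, 141 and 129.9 (4.42, SE 0.07), and Socs2 rose by 3.44. Cblb, a ubiquitin ligase that restrains CD28 signals, went from 37.8, 48.9 and 48.8 to 163, 163 and 157 (1.82, SE 0.09). The MAP kinase phosphatases Dusp1 and Dusp10 fell from 348, 344 and 225 to 20.1, 17.03 and 17.2 TPM and from 393, 572 and 519.8 to 9.5, 10.6 and 12.03 (−3.98 and −5.39), and Pik3ip1, an inhibitor of PI3 kinase, from 115, 139.7 and 168 to 5.103, 5.396 and 5.31 (−4.48). Socs3 fell by 1.78 and Socs1 differed by 0.76, under the fold minimum.

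Nearly all cell cycle genes rose. Of 46 mitosis and spindle genes 43 rose (93.5%, against 24.7% of all genes), with a median of 3.11, and 42 of 47 DNA replication genes did, with a median of 2.05. No member of either list fell. Ccnb1, the mitotic cyclin, went from 5.72, 4.17 and 4.86 TPM to 151, 159 and 161, and Hmmr, whose promoter is printed above, from 3.96, 2.698 and 4.59 to 92.5, 104 and 94.6. Plk1, a mitotic kinase, went from 10.7, 8.83 and 8.704 to 178, 167 and 148. Mki67, the usual proliferation marker, went from 27.8, 28.5 and 27.0 to 221, 261 and 216. These changes were 4.75, 4.39, 3.99 and 3.02 (SE between 0.08 and 0.12). Cenpa, the centromeric histone, was an exception, at 96.6, 102 and 113 TPM in Naive and 128, 122 and 114 at 48h, and it was not called.

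In the replication list, Orc1, of the origin recognition complex, went from 3.2, 2.47 and 3.56 TPM to 64.4, 66.8 and 72.7 (4.09, SE 0.09). Cdc45, of the active helicase, went from 10.4, 6.91 and 7.899 to 132, 136 and 142 (3.89, SE 0.10). Cdc6, with the E2F element shown, rose by 3.25. Pcna, the sliding clamp, was already at 273, 240.3 and 227 TPM in Naive and stood at 702, 687 and 724 at 48h (1.51). Cdt1, the licensing factor that Cdc6 works with, was lower in all 48h libraries, 89.3, 87.2 and 85.9 TPM against 113, 121 and 142, by 0.51, under the fold minimum.

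Of 27 G1 regulators 19 rose and 2 fell. Ccnd2, the main D cyclin here, went from 76.5, 108 and 97.1 TPM to 452, 474 and 440.4, Cdk6 from 14.4, 22.7 and 20.2 to 105, 111 and 96.7, and Ccne1, which opens S phase, from 11.3, 7.64 and 7.19 to 96.9, 105 and 92.03. Cdkn1b, the inhibitor p27 of resting cells, fell from 232, 309 and 309 to 33.2, 29.4 and 30.9 (−3.13, SE 0.11). Cdkn1a, the inhibitor p21, rose at the same time, from 22.3, 18.8 and 14.96 to 367, 346 and 343 (4.18, SE 0.16). Among 16 genes of p53 and its targets 7 rose and 4 fell: beside Cdkn1a, Perp rose by 4.59, while Trp53inp1 fell by 2.69, and Trp53 itself differed by 0.49 and Mdm2 by −0.204.

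Genes of the machinery that makes ribosomes rose, and few ribosomal protein genes did. Of 55 ribosome biogenesis genes 43 rose (78.2%) and none fell, with a median of 1.58 (36 rose with median-of-ratios scaling). Npm1, a nucleolar chaperone, went from 623, 639 and 603 TPM to 2977, 2999 and 3257, Ncl, nucleolin, from 190.4, 202 and 204 to 878, 920.0 and 936, and Nop2, with the E-box shown, rose by 2.17. Dkc1, the pseudouridine synthase, went from 34.2, 40.5 and 35.9 to 194, 198 and 199 (2.39, SE 0.07). Of 84 cytosolic ribosomal protein genes 2 rose and 6 fell, with a median of −0.40 (15 fell with median-of-ratios scaling, 3 with quantile normalization). Rpl4 stood at 5919, 6283 and 6415 TPM in Naive and 6758, 6651 and 6678 at 48h, and Rplp1, the highest of the list in Naive, at 15441, 14771 and 15438 and 8602, 8185 and 8277 (−0.86, not called; −1.12 with median-of-ratios scaling). The rises were the paralogs Rps27l (2.91) and Rpl7l1 (1.79). By contrast, 39 of 76 mitochondrial ribosomal protein genes rose and none fell, with a median of 1.05, led by Mrpl1, from 5.26, 4.39 and 5.63 TPM to 36.9, 43.1 and 42.4.

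Transcripts of supply lines to the ribosome and the nucleus rose with those of biogenesis. Of 20 cytosolic aminoacyl-tRNA synthetases 19 rose, with a median of 2.55, and Qars, not called, differed by 0.66. Gars went from 77.5, 79.6 and 78.2 TPM to 616, 655 and 657 (3.02, SE 0.04) and Iars from 17.8, 26.4 and 27.03 to 266, 279 and 254 (3.46). Nuclear transport genes rose in 30 of 38 cases, with a median of 2.04, and 1 fell. Kpna2, an importin alpha, went from 28.04, 20.5 and 20.5 to 456, 465 and 478 TPM (4.298, SE 0.10), while Kpna1, another importin alpha, fell from 72.9, 106 and 116 to 36.6, 40.3 and 41.02 (−1.27). Nup37, of the nuclear pore, rose by 4.200 and the tRNA exporter Xpot by 3.02.

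Transcripts of amino acid supply changed for synthesis and for uptake. Of 18 genes of serine, one-carbon, asparagine and proline synthesis 15 rose (83.3%), with a median of 2.51, and none fell. Gldc, listed at 0 in Naive and at a mean of 1.37 TPM at 48h, lies below that median on this scale. Asns, with the amino acid response element shown, went from 1.41, 1.07 and 1.13 TPM to 283, 282 and 286. Psat1, of serine synthesis, went from 18.1, 14.98 and 15.04 to 431, 436 and 433, and Mthfd2, of the mitochondrial folate cycle, from 14.6, 14.9 and 11.4 to 297, 305 and 315. Pycr1, of proline synthesis, went from 0.275, 0.326 and 0.197 to 19.3, 17.4 and 17.3. They rose by 7.02, 4.68, 4.396 and 3.91 (SE between 0.07 and 0.12).

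Amino acid transporters were less uniform, with 7 of 17 higher (41.2%, against 24.7% of all genes) and 3 lower (17.6%, against 20.7%). Slc7a5, the transporter of large neutral amino acids, went from 40.9, 48.1 and 45.1 TPM to 808, 791 and 764 (4.11, SE 0.06). Slc3a2, the heavy chain it pairs with, was already at 225, 242 and 229 in Naive and stood at 328, 308 and 317 (0.45, not called). Slc1a5, a glutamine carrier, differed by 0.27, and Slc38a2, a carrier that responds to starvation, fell by 1.34. Of 24 ATF4-associated genes 19 rose and 3 fell, with a median of 2.96; Vldlr among them was listed at 0 in Naive and lies above that median. The members that fell were Cebpb (−2.37), Ppp1r15a (−2.74) and Ddit3 (−1.24), and Cebpb had the Naive order of the myeloid sums (253, 192 and 123 TPM). Atf4 itself differed by 0.69, from 532, 484 and 469 TPM to 809, 794 and 788, under the fold minimum with no overlap.

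Nucleotide synthesis rose in 28 of 34 genes, with a median of 1.83, and 1 fell. Rrm2, the regulated subunit of ribonucleotide reductase, went from 32.03, 21.7 and 21.8 TPM to 336, 338 and 349, and Cad, which starts pyrimidine synthesis, from 28.4, 32.4 and 30.7 to 149.7, 141 and 126. Ak4, a mitochondrial adenylate kinase, went from 0, 0.118 and 0 TPM to 59.4, 57.3 and 54.4. Their changes were 3.73, 2.15 and 5.803 (SE 0.11, 0.08 and 0.30). Of 16 polyamine and methionine genes 8 rose and none fell. Srm, spermidine synthase, went from 54.6, 55.6 and 48.4 to 437, 397 and 407 TPM (2.95), whereas Odc1, at the head of the pathway, was already at 524, 559 and 516 TPM in Naive and rose by 1.12 (0.87 with median-of-ratios scaling).

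Glycolysis and pentose phosphate genes rose in 23 of 27 cases, with a median of 2.19, and none fell. Tpi1, an isomerase of mid-glycolysis, went from 50.8, 42.1 and 36.3 TPM to 1815, 1772 and 1749.8, Pgk1 from 209, 191 and 196 to 4533, 4449 and 4543, and Hk2, the inducible hexokinase, from 6.35, 6.94 and 4.11 to 197, 189 and 172. The changes were 5.35 (SE 0.18), 4.496 (SE 0.11) and 4.804 (SE 0.13). Taldo1, transaldolase, was lower in all 48h libraries, by 0.52, and was not called. In the TCA cycle, pyruvate and glutamine list 15 of 34 rose and 1 fell: Cs, citrate synthase, went from 117, 119 and 119 to 433, 429 and 426 (1.85), and Pdk2, which blocks entry of pyruvate, fell from 9.53, 8.74 and 10.3 to 0.801, 0.955 and 1.11 (−2.43).

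Genes of the respiratory chain are given by the genome that encodes them. Of 67 nuclear-encoded respiratory chain genes 18 rose (26.9%, against 24.7% of all genes) and none fell, with a median of 0.67; 14 rose and 2 fell with median-of-ratios scaling, and 12 rose and 2 fell with quantile normalization. Of 13 transcripts of the mitochondrial genome 5 fell and none rose, with a median of −0.64. mt-Nd3 stood at 3616, 2551 and 2850.1 TPM in Naive and 837, 890.3 and 936 at 48h (−1.74, SE 0.16), and mt-Cytb at 8316, 7101 and 8007 and 2681, 3049 and 3206 (−1.39). mt-Co1 stood at 22704, 20694 and 23137 and 15979.9, 18682 and 19168 (−0.31, not called). The calls of mt-Atp6 (−1.46) and mt-Co3 (−1.11) were lost with quantile normalization (−0.98 and −0.30), which left 3 falls in the list, and that of mt-Co3 without Naive replicate 1 (−0.996). The reads of mt-Atp6 and mt-Atp8, which overlap, are uncertain. Import and chaperone genes rose in 19 of 31 cases: Lonp1, the matrix protease, by 3.17, Hspd1 by 2.93 and Hspa9 by 2.89.

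Transcripts of lipid synthesis rose on both branches. Of 25 cholesterol genes 19 rose and 2 fell, with a median of 1.64, and of 16 fatty acid genes 12 rose and 1 fell, with a median of 1.71. Idi1, which isomerises the isoprene unit, went from 24.2, 23.99 and 20.02 TPM to 358, 393 and 421 (4.05, SE 0.08), Fdps from 28.5, 26.3 and 25.3 to 380.2, 379.8 and 359 (3.76), and Hmgcs1, with the sterol element shown, from 60.98, 93.9 and 83.6 to 329.8, 339.5 and 348 (2.101, SE 0.11). The members that fell were the sterol exporters Abca1 (−1.92) and Abcg1 (−1.92). Scd2, a fatty acid desaturase, went from 24.1, 24.9 and 24.3 to 1235, 1252 and 1172 TPM (5.58, SE 0.09), and Fads2, another desaturase, from 1.54, 1.34 and 0.769 to 114, 126 and 108 (5.74). Cpt1a, which carries fatty acids to oxidation, fell from 53.04, 57.5 and 54.6 to 24.1, 24.7 and 22.6 (−1.18).

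**Figure D4:**
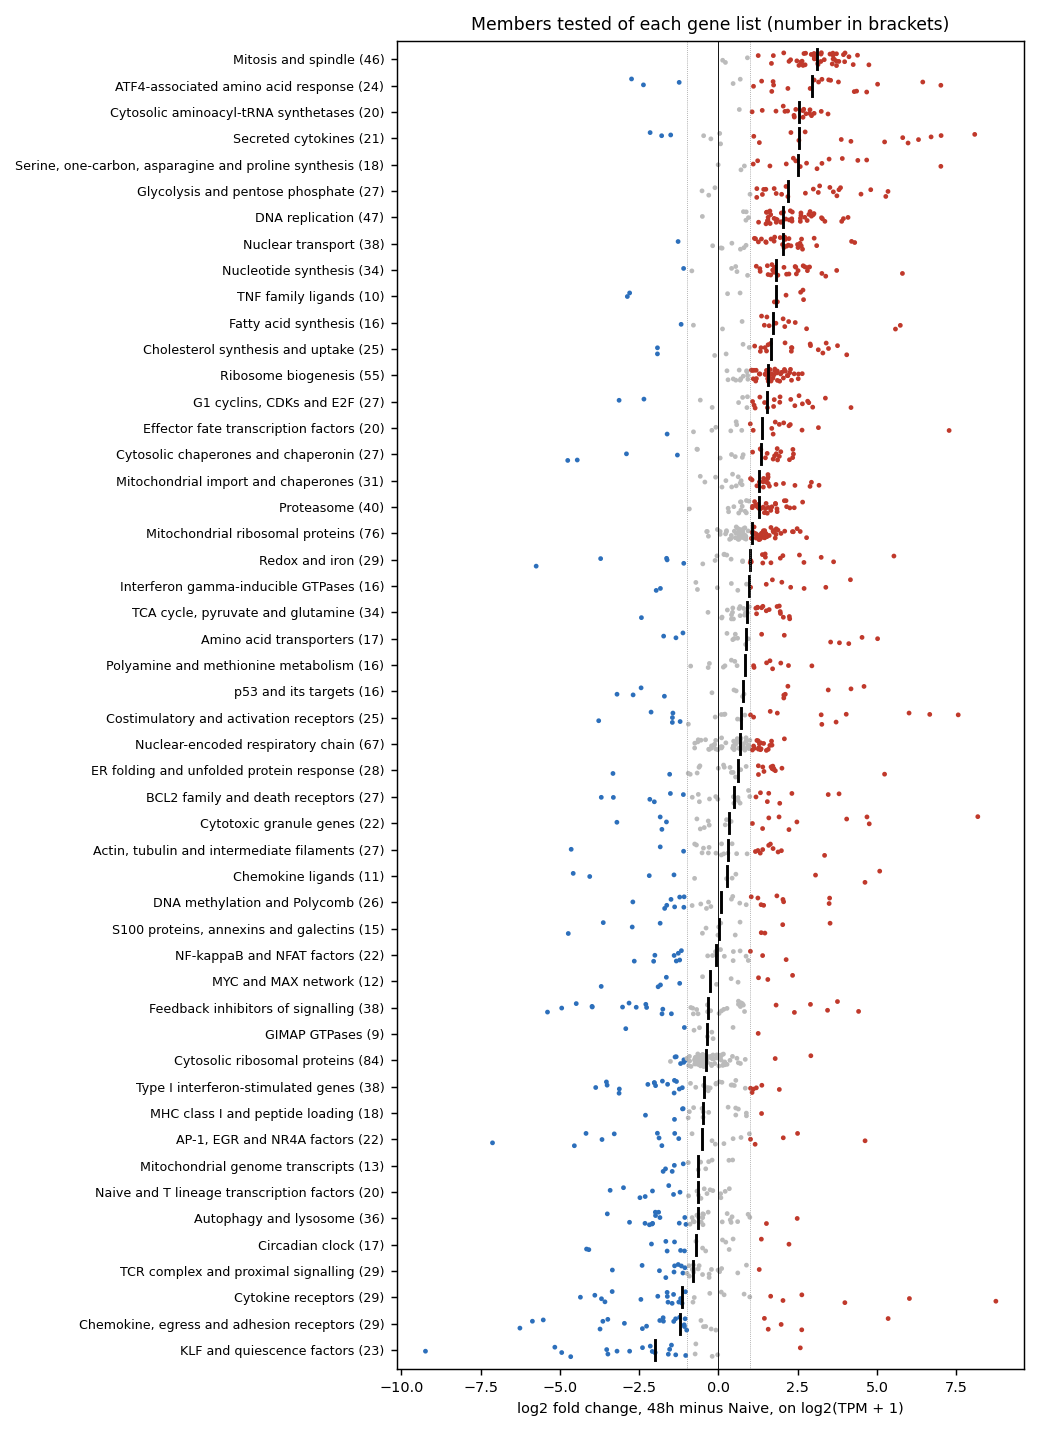
Each point is 1 tested member of a list, placed by its log2 fold change of 48h against Naive on log2(TPM + 1), red where called higher, blue where called lower and grey where not called; the black bar is the list's median, and dotted lines mark the fold minimum. Medians run from 3.11 for mitosis and spindle genes to −2.005 for KLF and quiescence factors.

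Of 40 proteasome genes 27 rose and none fell, with a median of 1.28, and Psmd1 went from 25.8, 29.1 and 26.9 TPM to 174, 179 and 179 (2.66). Of 27 cytosolic chaperones 16 rose and 4 fell. The chaperonin subunits Cct6a and Cct8 went from 90.4, 89.7 and 94.0 to 457, 473 and 497 and from 138, 124 and 129.9 to 643, 662 and 701 TPM (2.37 and 2.35), and the heat shock genes Hspa1a and Hspa1b fell by 4.75 and 4.45. In the ER, 12 of 28 folding and unfolded protein response genes rose (42.9%, against 24.7% of all genes) and 2 fell (7.14%, against 20.7%). With median-of-ratios scaling 4 fell. Ero1l, the oxidase that drives disulfide formation, went from 24.6, 25.6 and 27.7 to 977, 1046 and 1029.9 (5.24, SE 0.11). Hspa5, the sensor-linked chaperone BiP, stood at 806, 805 and 743 and 855, 875 and 902 (0.16, not called), and Dnajb9, its cochaperone, fell from 197, 206 and 180.1 to 17.3, 19.3 and 18.8 (−3.33, SE 0.10). Autophagy and lysosome genes fell in 13 of 36 cases (36.1%, against 20.7% of all genes) and rose in 2 (5.56%, against 24.7%). Among the falls was that of Map1lc3b, the LC3 protein of autophagosomes, from 94.5, 102 and 102 to 18.1, 19.6 and 20.1 (−2.32).

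Of 38 type I interferon-stimulated genes 16 fell (42.1%, against 20.7% of all genes) and 6 rose, with a median of −0.46 (2 rose with median-of-ratios scaling). Irf7, the master factor of the type I response, went from 93.6, 108 and 95.9 TPM to 12.2, 9.58 and 9.62 (−3.13, SE 0.14), and Ifit3 from 26.4, 25.1 and 28.03 to 0.775, 1.002 and 0.866 (−3.87, SE 0.13). Of 16 interferon gamma-inducible GTPases 8 rose and 2 fell, with a median of 0.95. Gbp5 went from 4.73, 4.19 and 3.47 to 51.3, 52.0 and 53.8 TPM (3.39, SE 0.09) and Igtp from 68.8, 57.4 and 56.3 to 389, 417 and 394 (2.702, SE 0.07), while Gbp9 fell by 1.96. Isg15 rose by 1.102, and lay under the fold minimum when Naive replicate 3 was left out (0.97) and with median-of-ratios scaling (0.85). Of 18 MHC class I and peptide loading genes 4 fell (22.2%, against 20.7% of all genes) and 1 rose (5.56%, against 24.7%). With median-of-ratios scaling 7 fell. H2-D1 fell from 2754, 2673 and 2593 to 1089.6, 1023 and 957 (−1.39), and B2m, the light chain, stood at 6726, 6142 and 5689 TPM in Naive and 4259, 4403 and 4571 at 48h (−0.48, not called). The H2-Q genes are near-identical copies and are uncertain.

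Of 27 BCL2 family and death receptor genes 8 rose (29.6%) and 6 fell (22.2%), shares near the 24.7% and 20.7% of all genes. Bcl2l1, which encodes BCL-XL, went from 11.6, 10.03 and 10.7 TPM to 169, 162 and 159 (3.804, SE 0.07). Bcl2 rose less, from 33.2, 46.7 and 44.8 to 97.03, 97.3 and 89.9 (1.18, and 0.93 with median-of-ratios scaling), and Mcl1 stood at 467, 464 and 455 and 258, 259 and 265 (−0.83, not called; −1.08 with that scaling). The BH3-only death genes Bcl2l11, which encodes BIM, and Bbc3, which encodes PUMA, fell from 31.7, 42.2 and 45.7 to 7.599, 8.16 and 8.303 and from 200.2, 226 and 239 to 19.5, 15.6 and 13.8 (−2.16 and −3.69).

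Of 29 redox and iron genes 15 rose (51.7%, against 24.7% of all genes) and 5 fell (17.2%, against 20.7%). The metallothioneins Mt1 and Mt2 went from 16.8, 12.2 and 6.98 to 151, 145 and 159.6 and from 7.63, 2.49 and 3.62 to 259.5, 224 and 235 TPM (3.63 and 5.53, SE 0.26 and 0.27), and Tfrc, the transferrin receptor, from 40.98, 52.2 and 54.7 to 452, 474 and 488 (3.24, SE 0.09). Slc40a1, the iron exporter, was listed at 0 at 48h and at 85.3, 65.8 and 25.99 TPM in Naive, and Hmox1, heme oxygenase, fell from 650.2, 515 and 186 to 31.6, 29.6 and 26.8. Both had the Naive order of the myeloid list, of which Hmox1 is a member, and the part of these cells in the change was not tested. The same holds for S100a4, S100a6 and Anxa1, which stood at 79.2, 47.05 and 33.1, at 40.6, 30.4 and 14.1 and at 19.7, 15.5 and 6.82 TPM in Naive and fell by 4.74, 2.72 and 3.63. Anxa2, of the annexin family, rose from 43.7, 33.7 and 28.4 to 397, 414 and 418 (3.52, SE 0.26) and Lgals1, galectin 1, from 385, 318 and 313 to 895, 908 and 788 (1.35).

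Of 27 actin, tubulin and filament genes 10 rose (37.0%, against 24.7% of all genes) and 3 fell (11.1%, against 20.7%). Actb went from 2151, 1954 and 1808 TPM to 6273, 6099 and 6007 (1.64, SE 0.07) and Tuba1b from 954, 810.2 and 795 to 3379.9, 3354 and 3380.1 (1.99). The lamins moved apart: Lmna fell from 76.7, 84.8 and 84.7 to 2.72, 2.26 and 2.01 (−4.64, SE 0.10), and Lmnb1 rose from 89.1, 81.8 and 73.8 to 217, 216 and 214 (1.396, SE 0.06). Vim, vimentin, stood at 861, 876 and 850.3 and 697, 703 and 708 and was not called.

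Of 26 DNA methylation and Polycomb genes 9 rose (34.6%, against 24.7% of all genes) and 8 fell (30.8%, against 20.7%). With median-of-ratios scaling 7 rose and 9 fell. The copying enzymes Dnmt1 and Uhrf1 rose from 45.1, 53.7 and 53.9 to 219.7, 214 and 199.6 and from 25.4, 19.5 and 21.7 to 274, 259 and 244 TPM (2.03 and 3.49), Ezh2, the H3K27 methyltransferase, from 13.9, 11.5 and 11.6 to 145, 152 and 154 (3.51, SE 0.07), and Kdm6b, which removes that mark, fell from 189, 304 and 298 to 43.02, 38.9 and 35.1 (−2.700, SE 0.15). Hist1h1c, a linker histone, was among the steepest falls, from 1049.7, 1009 and 1159.9 to 10.4, 11.7 and 12.3 (−6.43, SE 0.13). Of 17 clock genes 8 fell (47.1%, against 20.7% of all genes) and 2 rose (11.8%, against 24.7%). With a pseudocount of 5, 4 fell. Per1, of the core loop, went from 407, 617 and 618 TPM to 30.3, 29.2 and 27.9 (−4.16) and Nr1d2 from 102, 138 and 151 to 7.13, 7.31 and 5.54 (−4.09), and the time of day of collection is not given.

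Set against the times beside it, 48h differed in 1013 genes from 24h (8.02%), with 625 higher at 48h (4.95%) and 388 lower (3.07%). From 48h to 72h 762 genes changed (6.03%), with 355 higher (2.81%) and 407 lower (3.22%). These comparisons share the 48h libraries, so their values are given side by side. Of the 3117 genes that stood higher than in Naive, 382 (12.3%) were also higher than at 24h and 239 (7.67%) fell again by 72h. Of the 2609 that stood lower, 154 (5.9%) were also lower than at 24h and 174 (6.67%) rose by 72h. In 130 genes (1.03% of those tested) 48h was higher than in all 3 other groups, and in 19 (0.15%) it was lower than in all of them.

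Cytokines were among the genes that peaked at 48h. Ifng stood at 21.7 ± 7.74 TPM in Naive, 1250.3 ± 183 at 24h, 5871 ± 186 at 48h and 24.7 ± 3.79 at 72h (mean ± SD, n = 3 here and below). Il23a, the p19 chain of IL-23, stood at 44.8 ± 1.12 TPM at 48h and at 0 in all 72h libraries, and at 0.908 ± 0.148 at 24h. Penk, proenkephalin, peaked at 43.1 ± 4.21 TPM and Slc35d3 at 47.7 ± 4.84. From 48h to 72h these genes fell by between 2.24 for Slc35d3 and 7.84 for Ifng on the log2 scale, after rises from 24h of between 2.24 for Ifng and 4.59 for Il23a. Nos2, inducible nitric oxide synthase, was listed at 0 in Naive and stood at 13.1, 12.9 and 12.6 TPM in the 48h libraries.

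Some effector genes stood higher at 24h. Xcl1 stood at 1979.9 ± 61.98 TPM at 24h and 345 ± 23.8 at 48h (−2.52, SE 0.41, adjusted p = 0.000206), and Ccl4 at 1600.0 ± 206 and 781 ± 37.9 (−1.03). By 72h Ccl3, Ccl4 and Xcl1 were at 16.5, 8.45 and 6.45 TPM. Srm, of polyamine synthesis, was also past its peak, at 932 ± 53.3 TPM at 24h and 414 ± 20.7 at 48h (−1.17). A later group had its steepest step between 24h and 48h: Ero1l went from 148 ± 28.9 to 1018 ± 36.1 (2.797), Cdkn1a from 27.5 ± 7.08 to 352 ± 12.8 (3.66), Mt2 from 12.7 ± 3.52 to 239.7 ± 18.1 (4.16) and Anxa2 from 37.9 ± 15.97 to 409.6 ± 11.4 (3.504). The Naive means of Cdkn1a and Anxa2, 18.7 and 35.3 TPM, lay near their 24h means, so most of their 48h difference arose in the second day.

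Among the genes lower at 48h than in each other group, Slamf6, a surface receptor of stem-like T cells, stood at 33.6 ± 1.07 TPM in Naive, 8.63 ± 0.167 at 24h, 1.53 ± 0.154 at 48h and 9.38 ± 0.2203 at 72h. Sorl1, a sorting receptor, stood at 66.9 ± 8.004, 21.2 ± 1.77, 8.42 ± 0.424 and 24.1 ± 2.05, and Trbv12-1, a TCR variable segment, at 2405 ± 280.2, 609.7 ± 38.3, 236 ± 26.7 and 572 ± 80.9. The rise from 48h to 72h was 2.04 for Slamf6, 1.41 for Sorl1 and 1.27 for Trbv12-1 (SE 0.08, 0.10 and 0.11). Reads of TCR variable segments can be shared between copies and are uncertain. Cxcr3, the receptor of effector and memory cells for inflamed tissue, was lower at 48h than at 24h and 72h, with 23.9 ± 3.75, 7.04 ± 1.55 and 77.3 ± 2.55 TPM at 24h, 48h and 72h, and its fall against Naive lay under the fold minimum with a pseudocount of 5 (−0.77), without Naive replicate 1 (−0.97) or 2 (−0.98), and without 48h replicate 3 (−0.89).

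In 10 genes (0.0792%) 48h was higher than Naive while 24h was lower than Naive, with 48h above 24h. Sdc4, a heparan sulfate proteoglycan, stood at 18.6 ± 2.81 TPM in Naive, 6.904 ± 2.48 at 24h, 49.3 ± 3.85 at 48h and 11.7 ± 0.537 at 72h.

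**Figure D5:**
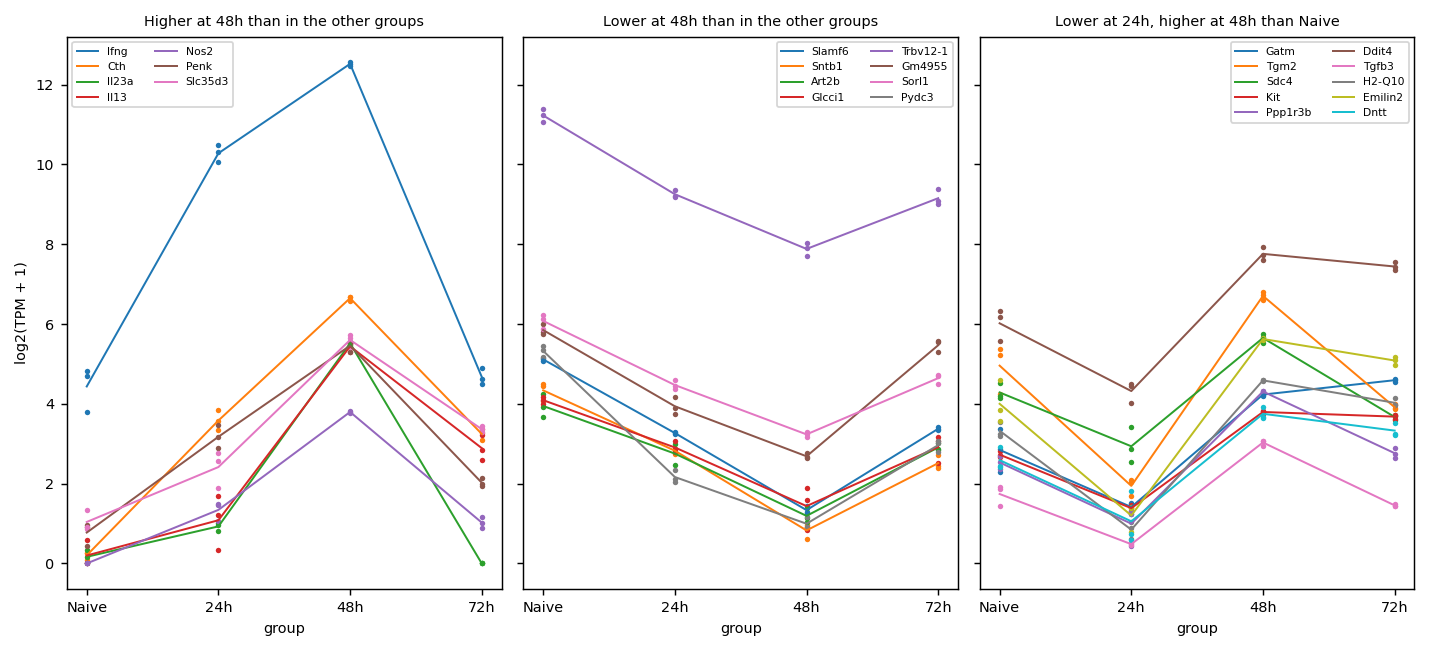
The y axis is log2(TPM + 1) and the x axis the 4 groups; points are libraries and lines join group means. The left panel shows 7 of the 130 genes higher at 48h than in each other group, the middle panel 8 of the 19 that were lower, and the right panel the 10 genes that were lower than Naive at 24h and higher than Naive at 48h.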

How the data were processed

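The authors deposited 1 table of TPM (reads per transcript length, scaled to the same total in each library) for 48709 genes in 12 libraries of 4 groups with 3 libraries each, and the 6 Naive and 48h libraries are compared here. Per the submitters' processing notes, the tools were FastQC 0.11.9, cutadapt 2.9, STAR 2.7.7a and edgeR 3.36.0 with build GRCm39; how reads shared between genes or strands were treated is not given in the sources used here. Whole reads were recovered from the TPM values for 19181 of 19181 genes above 0 (100.0%, tolerance 0.001), and gave 14312854 to 19495722 reads per library.

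Genes that reached 1 TPM in 3 or more libraries were tested on log2(TPM + 1) with limma 3.58.1 in R 4.3.3, with means of the 4 groups, an intensity trend and Benjamini-Hochberg adjustment over all 12630 genes. A call needed both an adjusted p under 0.05 and a difference of 1 or more on that scale. Positions and list counts were made in Python 3.11.15 with pandas 2.3.3 and numpy 2.4.6, and figures with matplotlib 3.10.9. The procedure was tested on simulated data. Promoters came from RefSeq on GRCm38.p6, and no coordinate of the authors' build was used.

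Genes were named by rule: the 12 largest rises and falls at 10 TPM or more, in each list up to 4 called genes, up to 2 of the other direction and up to 2 not called, the 10 highest genes of each group, the 8 largest peaks and troughs, genes listed at 0 in 1 group, and key genes of each list; some of these are not reported here. Cdc6, Nop2, Ddit3, Socs2, Gldc, Gzmd, Gzme and Gzmf were added after their values were seen. The members and the 57 lists were chosen with earlier results of these data known. Alternatives were other pseudocounts, filters, scalings, fold rules, library weights, a fit on the compared groups, a replicate block and leaving out each library; limma voom on recovered reads and a filter on the Naive and 48h libraries were added after the data were seen.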

Additional observations from a re-analysis of the deposited data

Results flagged for a closer look

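In 10 genes the difference from Naive had opposite signs at the 2 times on the plates: lower than Naive at 24h and higher than Naive at 48h. The 9 that reached a mean of 10 TPM in Naive, at 24h or at 48h are given here. The difference of 48h against 24h was tested with limma, and both times share the Naive libraries. Genes chosen by opposite calls against Naive must differ between the 2 times, so these p-values do not test the pattern. Tgm2, a transglutaminase, stood at 40.8, 36.6 and 18.04 TPM in Naive, 3.099, 2.24 and 3.29 at 24h and 111, 104 and 95.4 at 48h, and 48h was above 24h by 4.76 on the log2 scale (SE 0.23, adjusted p = 1.02e-08). Emilin2, an extracellular matrix glycoprotein, stood at 23.02, 13.4 and 10.8, 1.68, 0.719 and 1.64 and 49.1, 48.5 and 47.4 TPM, a difference of 4.42 (SE 0.22, adjusted p = 1.78e-08). In both genes the 48h libraries lay above all Naive libraries. Their Naive values were highest in replicate 1 and lowest in replicate 3, the order of the myeloid sums, whose part was not tested.

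Ddit4, an inhibitor of mTORC1 that responds to stress, stood at 79.3, 46.3 and 70.7 TPM in Naive, 21.6, 15.3 and 20.6 at 24h and 243, 212 and 194 at 48h, a difference of 3.44 between the later groups (SE 0.17, adjusted p = 1.78e-08). H2-Q10, a secreted class I protein with near-identical relatives, differed by 3.74, Ppp1r3b, a glycogen-targeting phosphatase subunit, by 3.31, Gatm, of creatine synthesis, by 2.82, and Sdc4, a heparan sulfate proteoglycan, by 2.71. Dntt, the terminal transferase of TCR assembly, differed by 2.69 and Kit, the stem cell factor receptor, by 2.41. Their adjusted p-values lay between 1.13e-09 for H2-Q10 and 3.59e-06 for Dntt. By 72h Tgm2, Sdc4 and Ppp1r3b were at 14.1, 11.7 and 5.81 TPM, below their 48h means of 103, 49.3 and 18.8, while Gatm stood at 23.1 beside 17.8. No cause was tested for this pattern.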

How the results depend on the processing

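No called named gene was called in the opposite direction under any alternative run. The counts of 3117 higher and 2609 lower genes at 48h against Naive became 5830 and 4636 with no fold minimum, and the lower count 1636 with a pseudocount of 5. The balance of rises and falls turned with median-of-ratios scaling (2508 higher and 3171 lower) and with limma voom on recovered reads (3153 and 3168). With a pseudocount of 5, 48h against 24h gave 298 higher and 150 lower, 72h against 48h gave 147 higher and 171 lower, and 58 genes peaked and 2 had a trough at 48h. With a pseudocount of 0.1, 700 were lower at 48h than at 24h, 584 higher and 663 lower at 72h than at 48h, and 75 had a trough. With no fold minimum these were 2786 higher and 3789 lower, 2964 higher and 2402 lower, both balances turned, with 687 peaks and 494 troughs, and with limma treat 210 and 64, 103 and 109, 27 and 2. With limma voom on recovered reads 952 were higher at 48h than at 24h, and 544 higher and 665 lower at 72h than at 48h. The remaining alternatives run kept these counts within 1.5 times.

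Leaving out 1 library gave 3120 to 3172 higher and 2544 to 2737 lower against Naive, 574 to 660.0 and 368 to 424 against 24h, 347 to 379 and 402 to 424 for 72h against 48h, 118 to 134 peaks and 16 to 24 troughs. With the replicate block the counts were 3117 higher and 2610.0 lower against Naive, 355 and 407 for 72h against 48h, 130 peaks and 19 troughs, and no named call changed. The numbers were not taken as pairs, since nothing in the labels says that a number marks a shared animal. Same-numbered Naive and 48h libraries correlated at 0.0318, 0.0535 and −0.0522 in their deviations, which cannot decide whether they shared animals. Of 471 named genes 17 lost and 19 gained a call in at least 1 setting other than the fold rules. Medians of the annexin and Polycomb lists lay near 0 and changed sign with scaling. A fit on the compared groups alone could not give the peak and trough counts, which need all 4 groups. Genes under 1 TPM are limited by depth.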

Other observations

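Some genes were listed at 0 in all libraries of 1 group. In all, 197 genes were at 0 in Naive and above 0 in all 48h libraries, 51 of them at 1 TPM or more, and 627 showed the reverse, 237 of them at 1 TPM or more and 56 at 10 TPM or more. Besides Il3 and Csf2, the first set held Nos2 (13.1, 12.9 and 12.6 TPM at 48h), Vldlr, a lipoprotein receptor (12.6, 13.6 and 12.2), and Inhba, an activin subunit (10.5, 7.15 and 6.28). The second set held Slpi, a protease inhibitor of neutrophils and macrophages, at 126, 77.3 and 34.7 TPM in Naive. It also held Ngp, a neutrophil granule protein, at 68.5, 89.2 and 55.1. Among the marker lists of other cells, C1qa, C1qc, S100a8, Fcna and Spic (myeloid) and Hba-a1 and Slc4a1 (erythroid) were listed at 0 in all 48h libraries.

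Genes outside the described groups were also among the largest changes. Bnip3, a mitophagy receptor known as a hypoxia-inducible gene, went from 3.62, 2.18 and 2.902 TPM to 358, 377 and 371 (6.58, SE 0.44). Trf, transferrin, fell from 177, 138 and 67.3 to 0, 0.144 and 0.202 (−6.74) and Jchain, the joining chain of secreted antibody, from 246, 121 and 73.1 to 0.201, 0.189 and 0.133 (−6.799), both in the direction of the other-cell markers, whose part was not tested. Of 9 GIMAP GTPases, which act in lymphocyte survival, 1 rose (11.1%, against 24.7% of all genes) and 2 fell (22.2%, against 20.7%). The rise was Gimap7 (1.25, and 0.97 with quantile normalization), and the falls were Gimap6 and Gimap3 (−2.92 and −1.07). Tgfb3, a transforming growth factor, was lower than Naive at 24h and higher at 48h, at 1.69, 2.65 and 2.8 TPM in Naive, 0.427, 0.369 and 0.399 at 24h and 7.44, 6.67 and 7.44 at 48h.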
